A study of Rattus norvegicus with 23 samples.

Results

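Splicing factor and spliceosome genes were examined in infarcted rat myocardium with and without an implanted device. The genes were chosen by symbol: every gene whose name starts with Srsf, Hnrnp, Snrp, Sf3a or Sf3b. The rule used symbols only, but it was set with earlier results of these data known. The 12-week table of values per library held 47 of them among 10723 genes: 10 SR protein genes (Srsf), 18 genes of heterogeneous nuclear ribonucleoproteins (Hnrnp), 10 genes of small nuclear ribonucleoprotein (snRNP) subunits (Snrp) and 9 genes of the SF3a and SF3b complexes. The authors' tables of comparisons held 48 of them among 11283 genes, with Snrpe as the additional one. The libraries were made from polyadenylated RNA of Sprague-Dawley rat hearts, labelled as myocardium, and sequenced on an Illumina platform. All rats had a myocardial infarction (MI) made by ligating the left coronary artery. Rats of the MI+TRD groups then had a second operation that placed the device, which the labels call TRD and do not describe. Age and sex are not given in the labels used here, nor is a group with infarction and a sham second operation or a group without infarction among the samples. There were 6 MI and 6 MI+TRD libraries at 12 weeks, and 6 MI and 5 MI+TRD libraries at 6 weeks, 23 in all. At each time MI+TRD was compared with MI, and by label these groups differ in the second operation with the device.

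Introns are removed from precursor messenger RNA by the spliceosome, which is assembled anew on each intron from snRNPs and other proteins. Each of the major snRNPs carries a small nuclear RNA in a ring of Sm proteins, the U1 snRNP recognises the start of the intron, and the U2 snRNP binds the branch point with the help of SF3a and SF3b. SR proteins bind exonic enhancers and recruit these particles, whereas hnRNP proteins coat nascent transcripts and often block nearby splice sites. In heart muscle, alternative splicing sets the forms of titin, calcium channels and contractile proteins. The data here are levels of the messenger RNAs of the splicing proteins, and splicing itself was not analysed.

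The promoters of 4 genes are shown. In the results described afterwards, Snrpb had the smallest p, Srsf7 the lowest fold change and Hnrnpa3 the highest. Hnrnph2 had the smallest p among the hnRNP genes. Srsf7 and Hnrnpa3 were chosen for this after their values were seen. Each sequence covers the 250 bases before the annotated transcription start, from RefSeq on the GRCr8 assembly, 5′ to 3′ on the strand of the gene. Capitals mark every match, on either strand, to any of 6 motifs: CCGGAAG (bound by ETS factors), GGGCGG (the GC box, bound by Sp1), CCAAT (bound by NF-Y), GCATGCGC (the core bound by NRF1), TGACG (the half-site of cyclic AMP response elements) and TATAAA (the TATA box). In Srsf7 an ETS match and a GC box overlap, and in Hnrnpa3 2 GC boxes do.
Snrpb promoter (chr3:137832480-137832729, reverse strand): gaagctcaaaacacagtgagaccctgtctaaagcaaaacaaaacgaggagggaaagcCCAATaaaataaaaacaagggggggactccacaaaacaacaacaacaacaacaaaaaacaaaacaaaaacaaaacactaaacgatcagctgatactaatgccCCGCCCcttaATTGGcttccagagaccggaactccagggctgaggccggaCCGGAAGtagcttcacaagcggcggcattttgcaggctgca
Srsf7 promoter (chr6:20563802-20564051, forward strand): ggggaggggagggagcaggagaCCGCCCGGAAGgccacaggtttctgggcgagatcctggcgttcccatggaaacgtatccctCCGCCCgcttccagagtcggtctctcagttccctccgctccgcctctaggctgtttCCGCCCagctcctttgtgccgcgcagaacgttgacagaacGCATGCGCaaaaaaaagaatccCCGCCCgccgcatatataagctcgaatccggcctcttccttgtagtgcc
Hnrnph2 promoter (chrX:102073999-102074248, forward strand): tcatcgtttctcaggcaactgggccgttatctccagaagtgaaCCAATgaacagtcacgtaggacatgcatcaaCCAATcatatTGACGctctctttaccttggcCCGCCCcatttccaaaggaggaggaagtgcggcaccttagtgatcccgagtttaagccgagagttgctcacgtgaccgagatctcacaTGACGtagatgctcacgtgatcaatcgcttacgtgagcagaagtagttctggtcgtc
Hnrnpa3 promoter (chr3:80985684-80985933, forward strand): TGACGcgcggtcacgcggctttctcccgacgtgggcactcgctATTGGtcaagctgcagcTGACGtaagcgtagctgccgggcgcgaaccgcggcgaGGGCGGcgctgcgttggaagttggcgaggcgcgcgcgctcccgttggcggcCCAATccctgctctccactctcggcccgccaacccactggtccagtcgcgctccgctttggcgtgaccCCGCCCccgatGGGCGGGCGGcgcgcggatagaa
A single promoter was found by symbol for 43 of the 47 genes. CCGGAAG stood in 12 of them (27.9%), against 7.27% of all 33469 promoters of that length in the table. Those 33469 promoters outnumber the 10723 genes measured at 12 weeks, and no comparison with measured genes alone was made. The GC box stood in 24 (55.8%, against 30.5%), TGACG in 18 (41.9%, against 18.2%), CCAAT in 20 (46.5%, against 34.0%), GCATGCGC in 3 (6.98%, against 2.2%) and TATAAA in 6 (14.0%, against 12.9%). The motifs were chosen after the promoters had been looked at, and a match is a description of the letters only. Hnrnpa3 carried 8 matches, Srsf7 6, Hnrnph2 5 and Snrpb 4. The promoters of Srsf9 and Sf3b5, the genes of smallest p in their families, carried 1 match each and are not shown. The promoter of Snrpb, the gene with the smallest p, had 1 GC box, and so had that of Hnrnph2, while Srsf7 and Hnrnpa3, at opposite ends of the fold changes, had 4 each.

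The reads recovered from the deposited values numbered 7197121 to 10304153 per library at 12 weeks, and replicates of a group always differed by more than counting error. Cardiomyocyte markers were high in all 12 libraries, with summed normalized counts of 44700 to 73100 over 11 of 12 listed genes in MI and 36800 to 61300 in MI+TRD. Libraries MI+TRD 1, 4 and 5 stood apart from the other libraries in measures that do not use the splicing genes. They had the highest normalized counts of the haemoglobin gene Hba2, at 88.35, 233.7 and 464.7 respectively, against 0.4981 to 25.67 in the other 9 libraries. They also had the most genes at 0 reads, at 119, 114 and 178, against 13 to 75 elsewhere, and the lowest level of genes spanning up to 2000 bases. Summed leukocyte markers (10 genes) were lowest in these 3 libraries, at 119, 103 and 128, against 189 to 954 elsewhere. The sum over 7 of 8 listed erythroid genes was 310, 743 and 1120 there and 214 to 938 elsewhere, and no measured marker of these lists was at 0 in every library. Within MI+TRD, libraries 1, 4 and 5 had the highest sums of cardiomyocyte markers, at 56200, 54800 and 61300 against 36800 to 47600, and of 8 endothelial markers, at 760, 855 and 711 against 405 to 475. MI libraries lay at 547 to 781 in the endothelial sum. The sum of 5 smooth muscle markers was 764 in MI+TRD 5, against at most 275 in the other 11 libraries. In MI+TRD 6 the fibronectin gene Fn1 reached 1366 normalized counts, against 16.75 to 55.51 elsewhere, and its summed leukocyte markers were the highest, at 954. The main counts, medians and fold changes of the splicing genes are therefore given with and without MI+TRD 1, 4 and 5. Genes of other lists are given with them only. The labels do not say whether replicates are separate rats, and every p-value here rests on the spread among these libraries, which may be partly technical.

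At 12 weeks the splicing genes were mostly lower in MI+TRD than in MI, by little more than genes in general. Of 46 genes that passed the filter on low values, 13 (28.3%) were lower in MI+TRD at an unadjusted p below 0.05 in limma, where 19.1% of all 10633 genes tested were. None was higher, against 2.8% of all genes. No splicing gene passed at an adjusted p below 0.05, and neither did any other gene (0.0%). The lowest adjusted p of limma among the splicing genes was 0.132. The median log2 fold change was -0.22 over the splicing genes and -0.14 over all genes tested, a difference of -0.079, and 34 of the 46 lay below the median of all genes. Leaving out 1 library at a time moved this difference from -0.016 (without MI+TRD 4) to -0.147 (without MI+TRD 2), with -0.132 without MI 4, -0.041 without MI 3 and -0.051 without MI 5 or without MI+TRD 5. Over all 12 libraries, 42 of the 46 fold changes were below 0, where the median of all genes was itself -0.14. The share of all genes below 0 in limma is not given here. In the authors' deposited table at 12 weeks, 67.3% of all genes had a ratio below 1. The direction relative to 0 depends on how libraries are scaled to each other: 4 other scalings placed the median of all genes between -0.01 and 0.08. Median ratio scaling left 5 splicing genes lower (8.25% of all genes lower, 7.5% higher), quantile normalization 7 (9.82% and 6.55%), equal totals without ribosomal RNA 3 (6.62% and 8.46%) and equal totals 0 (3.87% and 11.4%). Hnrnpa3 alone was higher in each of these 4. On recovered reads, edgeR's quasi-likelihood test gave Sf3b5 and Snrpb lower (6.98% of all genes lower, 7.98% higher) and DESeq2 gave Sf3b5 lower (7.19% and 8.85%), and both gave Hnrnpa3 higher. Relative fold changes, the log2 fold change minus the median of all genes tested, are therefore given beside the fold changes. In whole tissue, fewer cells of a type and less RNA per cell cannot be told apart.

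**Figure D1:**
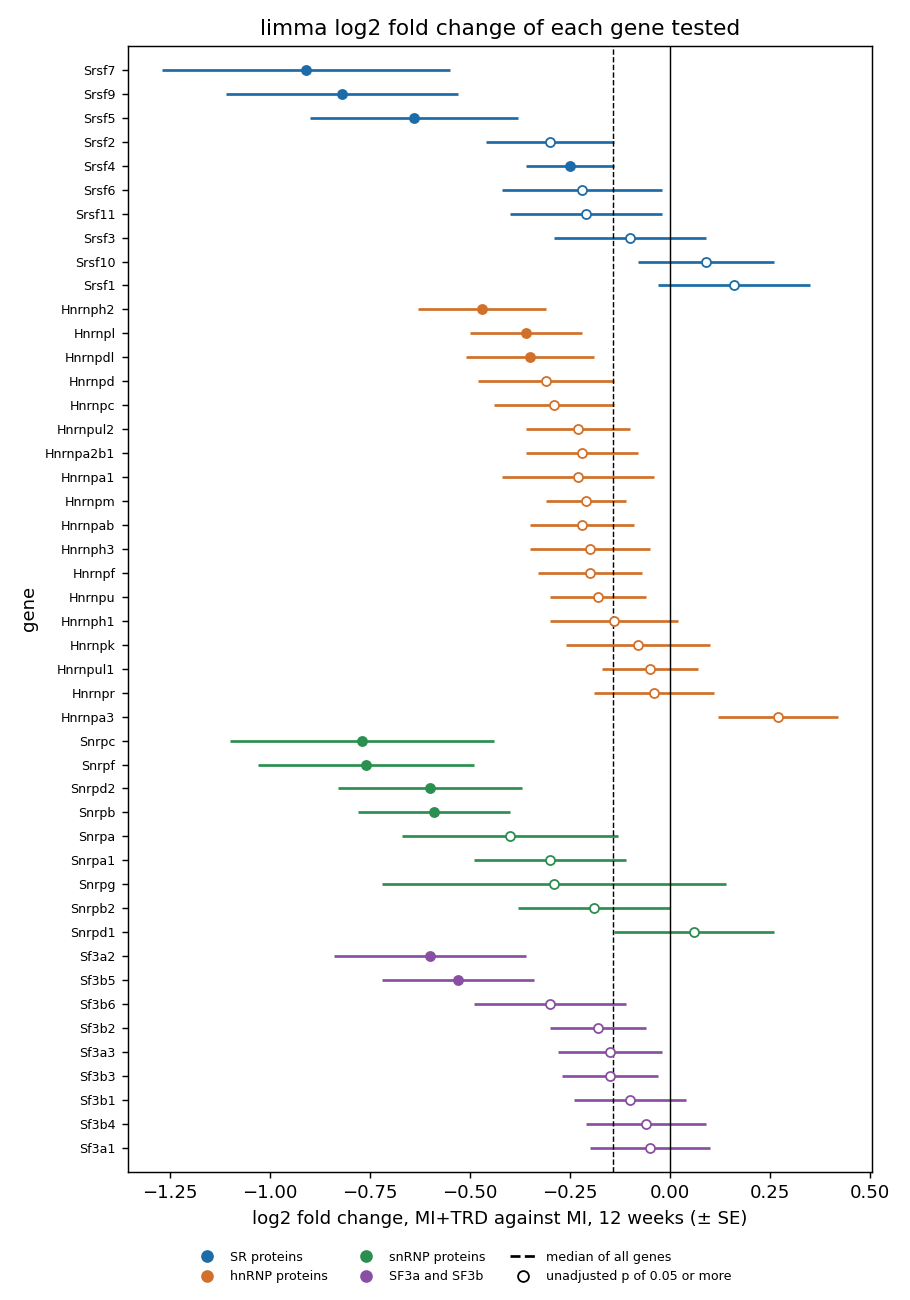
limma log2 fold change of MI+TRD against MI at 12 weeks for the 46 splicing genes tested, with its standard error, grouped by family; filled points have an unadjusted p below 0.05 and the dashed line is the median of all genes tested. The 13 filled points all lie left of that line, from Srsf7 at -0.91 to Srsf4 at -0.25, and Hnrnpa3 lies farthest right at 0.27.

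SR proteins were the family with the widest spread, and 4 of 10 (Srsf9, Srsf7, Srsf5 and Srsf4) were lower at an unadjusted p below 0.05, where 19.1% of all genes were. Their median relative fold change was -0.09, from -0.77 for Srsf7 to 0.30 for Srsf1. Srsf9 (rn6, chromosome 12, 47039714 to 47046023), a close relative of Srsf1 that acts in the choice of splice sites, ranged from 6.23 to 8.81 normalized counts in MI with a median of 7.50, and from 2.0 to 8.08 in MI+TRD with a median of 4.17. MI+TRD 1, 4 and 5 were far below every MI library and MI+TRD 3 slightly below, whereas MI+TRD 2 and 6 lay within the MI range. Its mean was 7.43 ± 1.04 without and 4.59 ± 2.46 with the device (SD, n = 6 each), a log2 fold change of -0.82 (SE 0.29, limma adjusted p = 0.141), and 5 of 6 MI+TRD libraries were below the mean of MI. Srsf7, which carries a zinc knuckle and takes part in splicing, export and 3′ end choice, had 11.5 to 14.8 normalized counts in MI (median 12.6) and 1.69 to 13.8 in MI+TRD (median 7.70). MI libraries were close together, and MI+TRD 5 was the lowest of all by a wide margin, with 42 reads. Its log2 fold change of -0.91 (SE 0.36, limma adjusted p = 0.166) was the lowest of the 46 genes over all 12 libraries. Without MI+TRD 5 it was -0.54, and Srsf9 (-0.75) and Snrpf (-0.65) were lower.

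Srsf5, an SR protein that binds purine-rich exonic enhancers, had 63.5 to 98.2 normalized counts in MI (median 72.7) and 27.5 to 89.8 in MI+TRD (median 51.4). MI+TRD 1, 4 and 5 were below every MI library, and the other 3 lay within the MI range. Its log2 fold change was -0.64 (SE 0.26, limma adjusted p = 0.172). Srsf4, one of the SR proteins with a long arginine and serine-rich tail, had 28.3 to 35.5 in MI (median 32.0) and 23.9 to 29.9 in MI+TRD (median 26.9). All 6 MI+TRD libraries were below the MI mean, with a small log2 fold change of -0.25 (SE 0.11, limma adjusted p = 0.199). Srsf2, the speckle protein SC35, had 69.1 to 94.9 in MI (median 84.5) and 51.8 to 93.7 in MI+TRD (median 63.8), and did not pass (log2 fold change -0.30, SE 0.16, limma adjusted p = 0.282). The family did not move as a block. Srsf1, the SR protein named SF2 or ASF when it was found, had 41.8 to 93.8 in MI (median 65.0) and 53.3 to 88.7 in MI+TRD (median 74.1), and its log2 fold change was 0.16 (SE 0.19, limma adjusted p = 0.672, chosen after its values were seen). The groups overlapped almost fully, with MI 4 the lowest library, and without MI 4 the log2 fold change was 0.04. Srsf3, Srsf6, Srsf10 and Srsf11 had log2 fold changes between -0.22 and 0.09, none with an unadjusted p below 0.05.

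Among the hnRNP genes 3 of 18 (Hnrnph2, Hnrnpl and Hnrnpdl) were lower at an unadjusted p below 0.05, a share near that of all genes. The median relative fold change was -0.07. Hnrnph2 (rn6, chromosome X, 105417665 to 105422863), which binds runs of guanines, had 31.4 to 44.5 normalized counts in MI (median 33.5) and 18.2 to 31.8 in MI+TRD (median 26.4). Only MI+TRD 3 reached the MI range, and MI+TRD 1 and 5 were the lowest. The means were 35.0 ± 4.91 and 25.6 ± 5.77 (SD, n = 6 each), a log2 fold change of -0.47 (SE 0.16, limma adjusted p = 0.133), and all 6 MI+TRD libraries were below the mean of MI. Hnrnpl, which binds CA repeats, had 82.9 to 118 in MI (median 99.0) and 58.5 to 96.2 in MI+TRD (median 77.0). MI+TRD 2 and 6 lay within the MI range, MI+TRD 3 just below it and MI+TRD 1, 4 and 5 well below it (log2 fold change -0.36, SE 0.14, limma adjusted p = 0.166). The deposited span of Sbk1 overlaps that of Hnrnpl, and also those of Hnrnpul1, Snrpa, Snrpa1, Snrpd2 and Snrpn. It thus reaches at least from base 80059991 to base 195074328 of chromosome 1. Whether counting used strand is not given, so reads of Sbk1 and of these genes may not be separable. Hnrnpdl, a paralogue of Hnrnpd, had 24.3 to 30.7 in MI (median 27.5) and 16.6 to 32.7 in MI+TRD (median 20.4). Its highest library of the 12 was MI+TRD 2, and its log2 fold change was -0.35 (SE 0.16, limma adjusted p = 0.224).

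The remaining hnRNP genes had smaller differences. Hnrnpm, which binds GU-rich sequences, had 57.6 to 73.4 normalized counts in MI (median 62.3) and 50.1 to 60.9 in MI+TRD (median 55.6). It was even across libraries, with 5 of 6 MI+TRD libraries below the lowest MI library, and did not pass (log2 fold change -0.21, SE 0.10, limma adjusted p = 0.244). Hnrnpu, which attaches RNA to chromatin, had 128 to 165 in MI (median 134) and 103 to 142 in MI+TRD (median 125), with a log2 fold change of -0.18 (SE 0.12, limma adjusted p = 0.40). Hnrnpa3, of the A and B type hnRNPs, ran the other way: it had 62.0 to 123 in MI (median 102) and 108 to 132 in MI+TRD (median 114). MI+TRD libraries were tightly grouped within or just above the upper part of the MI range, while MI 4 was far below the other MI libraries. The means were 98.2 ± 21.1 and 116 ± 8.53 (SD, n = 6 each), and the log2 fold change was 0.27 (SE 0.15, limma adjusted p = 0.311, chosen after its values were seen). Each of the 6 MI+TRD libraries exceeded the mean of MI. Among the 4 other scalings between libraries, each gave Hnrnpa3 an unadjusted p below 0.05 in limma, with log2 fold changes of 0.42 to 0.51. Without MI 4 its log2 fold change was 0.14 (limma adjusted p = 0.558). The other 12 hnRNP genes had log2 fold changes between -0.31 (Hnrnpd) and -0.04 (Hnrnpr). Of these, Hnrnpab has a deposited span of 2099580 bases that overlaps 24 other genes in the table, Hnrnph1 among them, so its value may hold reads of other genes.

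The snRNP proteins had the lowest median, a relative fold change of -0.26 over 9 genes tested, and 4 (Snrpb, Snrpf, Snrpd2 and Snrpc) were lower at an unadjusted p below 0.05, where 19.1% of all genes were. That median and its rank rested in part on single libraries: it was -0.07 without MI+TRD 1, where the SR median was -0.09, and -0.17 without MI 2 or without MI+TRD 4. Of these, Snrpb, Snrpf and Snrpd2 encode proteins of the Sm ring, and Snrpc encodes the U1 protein that steadies the pairing of the U1 RNA with the start of the intron. Snrpb (rn6, chromosome 3, 122696125 to 122703735) had 31.7 to 41.1 normalized counts in MI (median 32.5) and 15.6 to 31.4 in MI+TRD (median 22.7). Every MI+TRD library was below every MI library, but MI+TRD 2, 3 and 6 were only just below and MI+TRD 1, 4 and 5 were at about one level far beneath. It was the only splicing gene of the 46 whose groups did not overlap, and 1.59% of all genes were lower without overlap. The means were 33.8 ± 3.61 and 23.3 ± 7.59 (SD, n = 6 each), a log2 fold change of -0.59 (SE 0.19, limma adjusted p = 0.132). Snrpf had 10 to 16.8 in MI (median 12.9) and 3.96 to 14.0 in MI+TRD (median 7.58). The same 3 MI+TRD libraries were the lowest, and MI+TRD 2 was higher than 3 of the MI libraries (log2 fold change -0.76, SE 0.27, limma adjusted p = 0.143).

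Snrpd2 had 20.5 to 42.0 normalized counts in MI (median 27.9) and 12.7 to 29.5 in MI+TRD (median 18.6). The groups overlapped in MI+TRD 2, 3 and 6, and the log2 fold change was -0.60 (SE 0.23, limma adjusted p = 0.153). The span of Sbk1 covers this gene too. Snrpc had 4.76 to 7.40 in MI (median 6.20) and 1.26 to 7.75 in MI+TRD (median 4.09). MI+TRD 2 was the highest of all 12 libraries and MI+TRD 5 the lowest with 31 reads, and the SD within MI+TRD was 2.47 around a mean of 4.16 (log2 fold change -0.77, SE 0.33, limma adjusted p = 0.198). Without MI+TRD 5 the log2 fold change of Snrpc was -0.50. The remaining Sm and U1 or U2 protein genes were low in these libraries and none passed. The log2 fold changes were -0.40 for Snrpa (of the U1 snRNP), -0.30 for Snrpa1 and -0.19 for Snrpb2 (both of the U2 snRNP), -0.29 for Snrpg and 0.06 for Snrpd1. Snrpg had 2 to 32 reads per library. Snrpn, an imprinted relative of Snrpb, had 0 to 53 reads, failed the filter and overlaps Snurf, so it was not tested.

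SF3a and SF3b subunits lay close to the median of all genes, with a median relative fold change of -0.01 over 9 genes, and 2 (Sf3b5 and Sf3a2) were lower at an unadjusted p below 0.05, a share near the 19.1% of all genes. Sf3b5 (rn6, chromosome 1, 7101715 to 7102428), a small SF3b subunit whose deposited span of 714 bases is the shortest of the 47, had 21.9 to 44.9 normalized counts in MI (median 26.5) and 15.8 to 25.1 in MI+TRD (median 18.7). MI+TRD 2 and 6 lay within the MI range, and MI 2 was high. The means were 29.5 ± 9.09 and 19.9 ± 3.86 (SD, n = 6 each), a log2 fold change of -0.53 (SE 0.19, limma adjusted p = 0.142), below the MI mean in 6 of 6 libraries. Sf3a2, which helps bind the U2 snRNP to the branch region, had 12.1 to 18.4 in MI (median 16.8) and 5.65 to 18.0 in MI+TRD (median 10.9). Again MI+TRD 1, 4 and 5 were below every MI library and the others within the MI range (log2 fold change -0.60, SE 0.24, limma adjusted p = 0.167). Sf3b6, which touches the branch-point adenosine, had a log2 fold change of -0.30 (SE 0.19, limma adjusted p = 0.38), with 5.13 to 9.13 in MI (median 7.28) and 4.05 to 7.33 in MI+TRD (median 6.08). Sf3b2 had 53.8 to 80.1 in MI (median 58.6) and 49.4 to 58.3 in MI+TRD (median 54.4), with a log2 fold change of -0.18 (SE 0.12, limma adjusted p = 0.406). Sf3b1, the large scaffold subunit, had 71.3 to 117 in MI (median 103) and 76.0 to 112 in MI+TRD (median 94.2). Its groups overlapped fully, its log2 fold change was -0.10 (SE 0.14, limma adjusted p = 0.736), and each of the 4 other scalings turned its sign, with values of 0.04 to 0.14. Sf3a1, Sf3a3, Sf3b3 and Sf3b4 had log2 fold changes between -0.15 and -0.05.

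**Figure D2:**
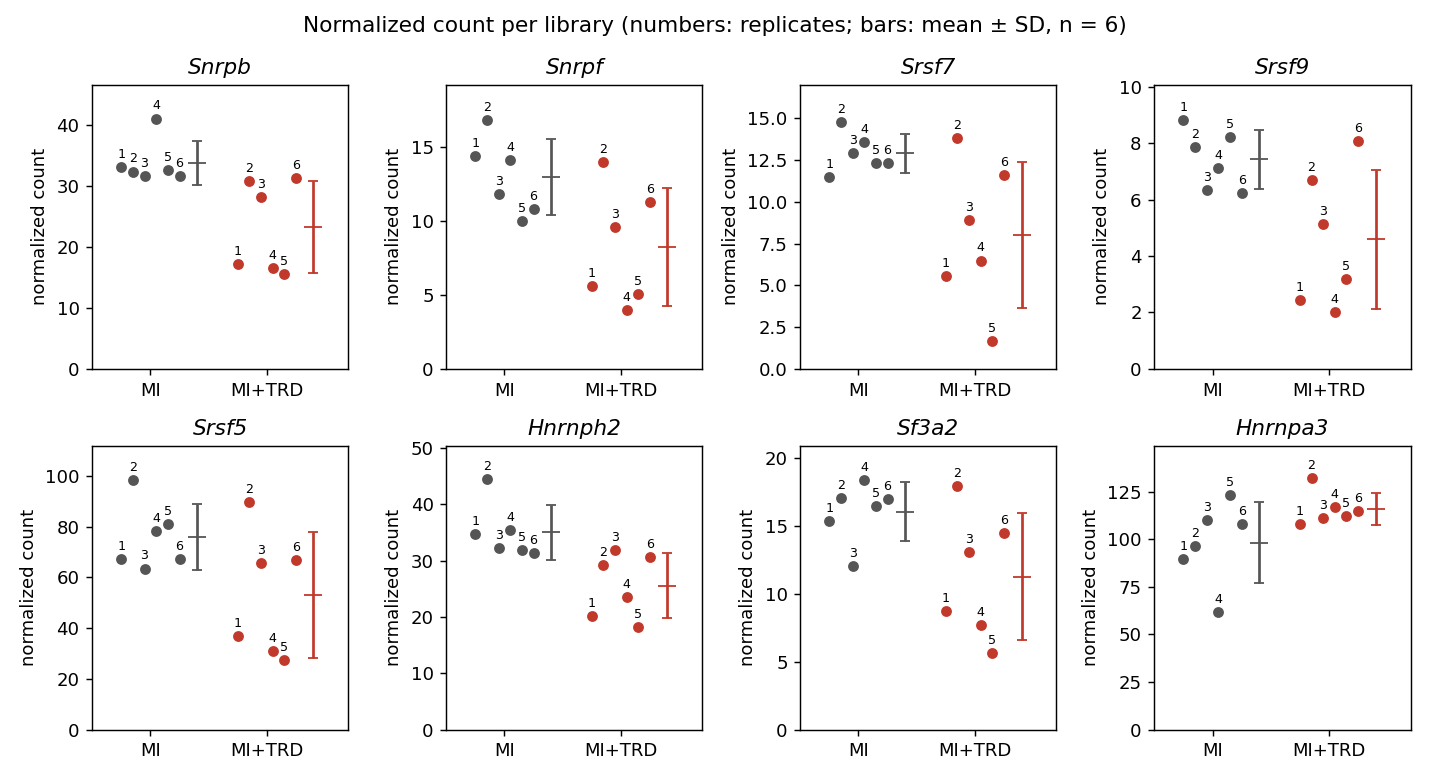
Normalized count per library at 12 weeks for 8 splicing genes, each axis from 0; points are libraries numbered by replicate, bars the mean and SD of 6 libraries. In every panel but that of Hnrnpa3, MI+TRD 1, 4 and 5 are the lowest libraries of their group, and in Snrpb they lie at 15.6 to 17.2 while the other 9 libraries lie at 28.2 or above.

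Most of the difference between the groups lay in 3 of the MI+TRD libraries. MI+TRD 1, 4 and 5 were the lowest 3 of all 12 libraries for 19 of the 46 genes (41.3%), against 13.1% of all genes, and the lowest 3 of the 6 MI+TRD libraries for 26 (56.5%), against 19.4%. The 19 genes were 5 SR, 9 hnRNP, 4 snRNP and 1 SF3 gene. MI+TRD 2, in contrast, was the highest MI+TRD library for 26 of the 46 genes, against 17.7% of all genes. Without MI+TRD 1, 4 and 5, limma called 0 splicing genes in either direction at an unadjusted p below 0.05, with 9.7% of all genes lower and 2.67% higher. The median of the splicing genes minus that of all genes was then 0.112, in place of -0.079. Relative medians of the families without these libraries were 0.15 for SR, 0.15 for hnRNP, 0.11 for snRNP and 0.05 for SF3 genes. With 3 MI+TRD libraries left, the log2 fold change of Snrpb was -0.16 (limma adjusted p = 0.539), that of Srsf7 -0.19 (0.555), that of Srsf9 -0.17 (0.646) and that of Snrpf -0.15 (0.69). The log2 fold change was then -0.01 for Snrpc, -0.03 for Srsf5, -0.05 for Hnrnpdl and -0.08 for Sf3a2. For Hnrnpl it was -0.14, for Hnrnph2 -0.19 and for Snrpd2 -0.20. The values of Sf3b5 (-0.38), Hnrnpm (-0.24), Srsf4 (-0.20) and Hnrnpa3 (0.31) were nearer to their values over all 12 libraries.

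**Figure D3:**
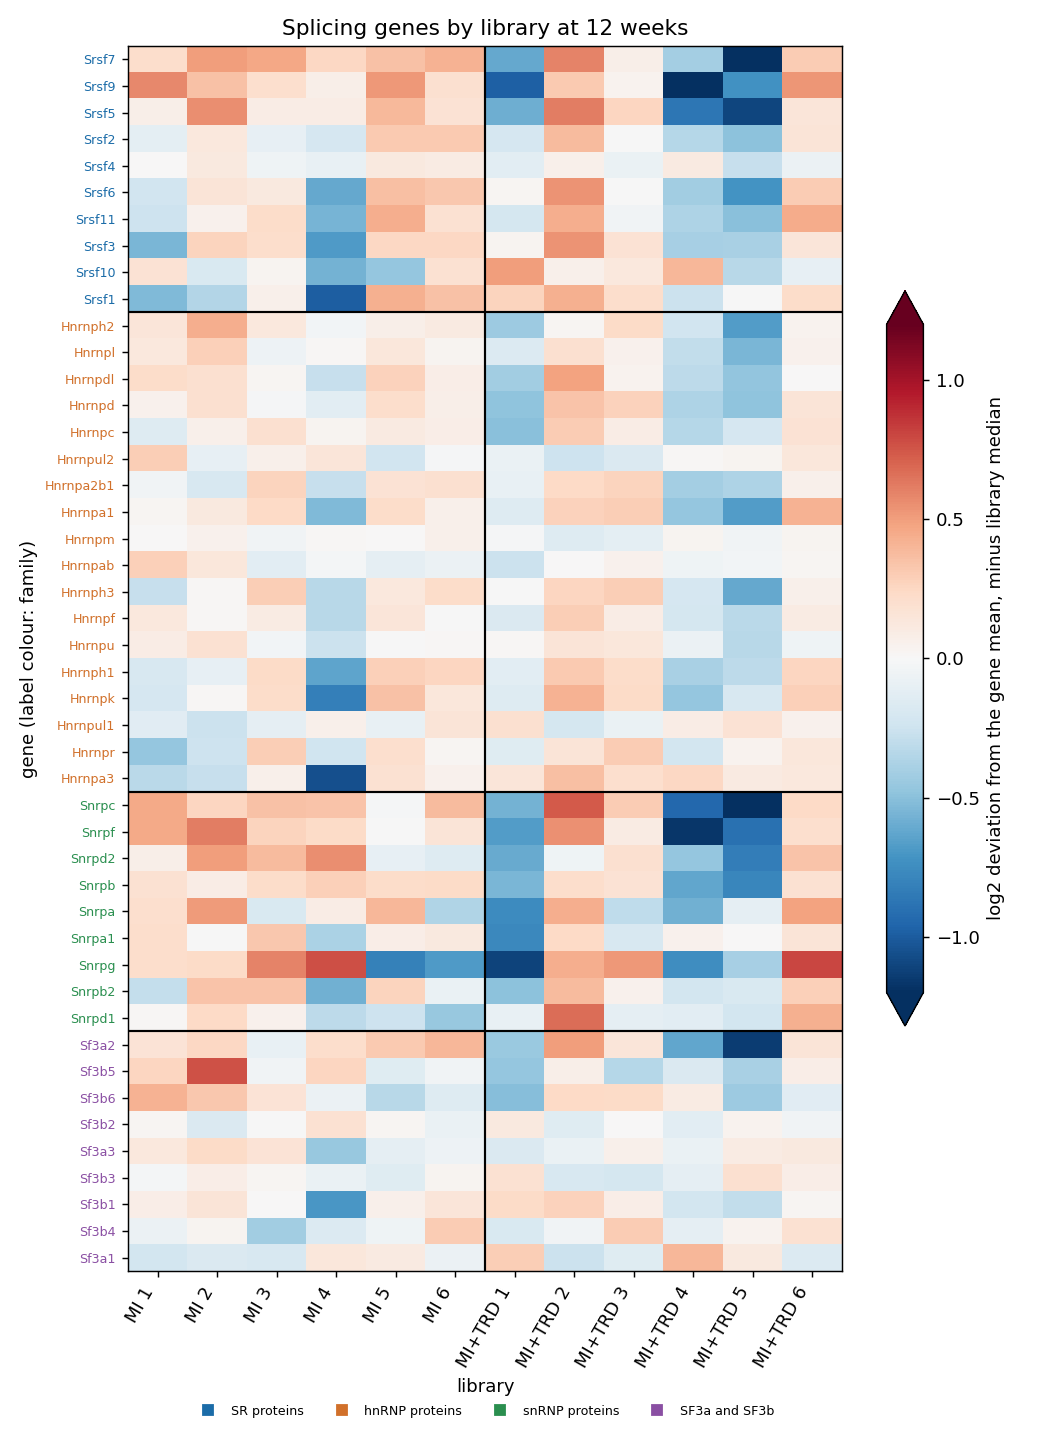
Log2 deviation of each of the 46 splicing genes (rows, grouped by family) from its mean over the 12 libraries (columns) at 12 weeks, minus the median deviation of all genes in that library; blue is low, red is high, and values beyond 1.2 in size share the end colours. MI+TRD 1, 4 and 5 are blue for most SR, hnRNP and snRNP genes and mixed for SF3 genes, and MI 4 is blue for a part of the SR and hnRNP genes.

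The family medians differed by library in the same way. In this measure, the deviation of a gene from its mean over the 12 libraries minus the library's median over all genes, snRNP genes had medians of -0.61, -0.57 and -0.40 in MI+TRD 1, 4 and 5, and 0.44, 0.10 and 0.28 in MI+TRD 2, 3 and 6. SR genes had -0.16, -0.39 and -0.50 in the first 3, but also -0.38 in MI 4. That MI library was the lowest of the 6 MI libraries for 13 splicing genes, where it was lowest for 10.8% of all genes and highest for 40.5%. Short genes as a class were also low in MI+TRD 1, 4 and 5, but not in MI 4. Genes spanning up to 2000 bases had relative medians of -0.517, -0.357 and -0.369 in MI+TRD 1, 4 and 5 and of -0.0177 to 0.318 in the other libraries. Splicing genes spanning up to 5000 bases had a median relative fold change of -0.18 (8 genes), against -0.23 for all genes of that class. The pairs of medians were -0.15 (17 genes) and -0.13 for spans of 5000 to 10000 bases, -0.08 (10 genes) and -0.05 for 10000 to 20000, and -0.06 (11 genes) and 0.10 above 20000. With the trend over gene span removed in each library, 0 splicing genes were lower and 2 higher (Hnrnpa3 and Srsf1) in limma, with 6.21% of all genes lower and 6.71% higher, and the relative median was -0.04. The log2 fold changes were then -0.60 for Snrpc, -0.59 for Srsf7, -0.50 for Srsf9 and -0.45 for Snrpf, with the median of all genes at 0.02, against relative fold changes of -0.63, -0.77, -0.68 and -0.62 with the trend kept. Removing the trend also recentred each library, so its count of lower genes cannot be told apart from a change of scaling. RNA integrity was not given for these samples, and the part of RNA quality, blood content, cell makeup or gene span in the result was not tested.

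**Figure D4:**
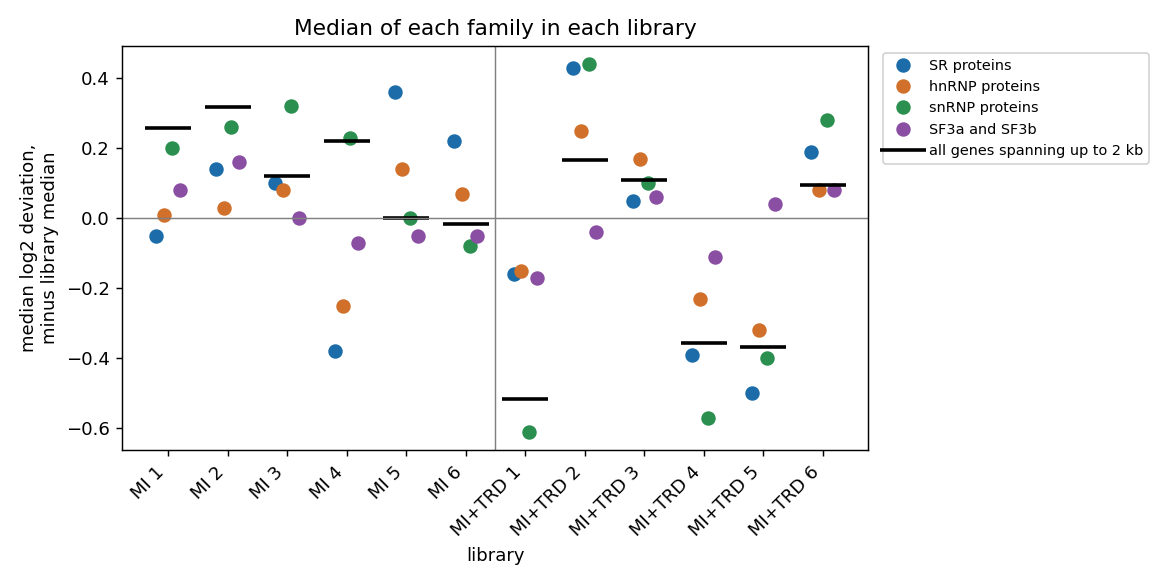
Median over each family of the log2 deviation from the gene mean, minus the library's median over all genes, in each of the 12 libraries at 12 weeks; black bars give the same median for all genes spanning up to 2 kb. In MI+TRD 1, 4 and 5 the black bars lie between -0.517 and -0.357 and the snRNP points at or below -0.40, and in MI 4 the SR point is at -0.38 while the bar is at 0.22.

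Splicing genes varied together across the 12 libraries to different degrees in the 4 families. On the same relative scale the median Pearson r was 0.59 over the 45 pairs of SR genes, 0.52 over the 36 pairs of snRNP genes, 0.43 over the 153 pairs of hnRNP genes and -0.03 over the 36 pairs of SF3 genes. These are descriptions over 12 libraries that share their depth, their scaling and the group difference. The closest pairs were Hnrnph1 with Hnrnpk (0.97), Hnrnpl with Srsf5 (0.96), and Srsf11 with Srsf6, Sf3a2 with Srsf5 and Sf3a2 with Snrpc (each 0.95), and the most opposed was Sf3a1 with Snrpf (-0.86). Sf3a1, a subunit of the same complex as Sf3a2, had its higher values in MI+TRD 1 and 4, where most splicing genes were low. In the whole table, the genes most like Snrpb by Pearson r of log2 values over the 12 libraries included Hcfc1r1 (0.987) and Oaz2 (0.986). Those most like Srsf9 were Mpv17l2, Bax and Tspo (0.971 to 0.972), those most like Hnrnph2 were Psmg4, Egfl7 and Dph3 (0.961 to 0.967), and those most like Sf3b5 were Ppp1r11, Rras and Arpin (0.945 to 0.949). No splicing gene of the 4 families was among the 3 genes most like each of these.

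Other genes of the splicing pathway were read from 6 further lists, in the deposited scaling and with all 12 libraries only. Of 94 other spliceosome proteins tested, 33 (35.1%) were lower at an unadjusted p below 0.05 and 1 was higher, where 19.1% of all genes were lower and 2.8% higher, with a median relative fold change of -0.08. The smallest p values belonged to Phf5a, a further SF3b protein (log2 fold change -0.64, SE 0.17), U2af1, which reads the end of the intron (-0.77, SE 0.23), and Txnl4b (-0.73, SE 0.22), each with an adjusted p of 0.132 in limma. U2af1 had 17.7 ± 3.90 normalized counts without and 10.6 ± 3.64 with the device (SD, n = 6 each), and Phf5a had 12.7 ± 1.87 and 8.24 ± 2.16. For all 3 of these genes MI+TRD 1, 4 and 5 were the lowest 3 of the 12 libraries. In the small list of the exon junction complex 3 of 7 genes were lower (Sap18, Rbm8a and Eif4a3) and none higher. Among 36 tissue-restricted and other regulators 7 were lower (19.4%, near the 19.1% of all genes) and 3 higher, with a median relative fold change of 0.08. Raly had 95.9 ± 12.2 in MI and 69.6 ± 6.66 in MI+TRD (log2 fold change -0.46, SE 0.12, limma adjusted p = 0.132), and Ewsr1 and Tia1 followed. The 3 higher genes were Mbnl2 (0.84, SE 0.29), Ptbp3 (0.46, SE 0.19) and Matr3 (0.43, SE 0.20). Their limma adjusted p values were 0.134, 0.17 and 0.224. The spread within MI was wide for Mbnl2, with 50.3 ± 26.2 in MI and 80.8 ± 12.0 in MI+TRD. The same held for Matr3, with 33.3 ± 11.5 and 42.8 ± 3.53, whereas Ptbp3 had 8.57 ± 1.79 and 12.0 ± 3.04.

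Genes that act on the splicing proteins gave small counts. Of 15 genes of SR protein kinases, import and phosphatases, 3 were lower, a share near the 19.1% of all genes, and 1 was higher. Srpk3, the muscle-restricted SR protein kinase, had 23.0 to 31.0 normalized counts in the MI libraries and 11.1 to 25.2 in the MI+TRD libraries. MI+TRD 2 was the only MI+TRD library within the MI range. The means were 27.3 ± 3.52 and 16.3 ± 5.13 (SD, n = 6 each), and its log2 fold change of -0.78 (SE 0.18, limma adjusted p = 0.132) had the smallest p of all genes named here. Clk2 (-0.53) and Clk3 (-0.45), kinases of the nucleus that phosphorylate SR proteins, were also lower. Ppp1cb, a catalytic subunit of protein phosphatase 1, was higher (0.70, SE 0.29, limma adjusted p = 0.179). Its spread within MI was wide, with 171 ± 87.6 in MI and 246 ± 28.3 in MI+TRD. Of 19 genes of snRNP assembly 3 were lower (Clns1a, Gemin7 and Gemin2), a share of 15.8%, and none higher. Among 7 of 8 listed cardiac targets of alternative splicing, whose total levels only are read here, Ldb3 was lower (-0.33, SE 0.14, limma adjusted p = 0.203) and the others, with Tnnt2, Camk2d and Ryr2 among them, were not called. No gene of these 6 lists passed at an adjusted p below 0.05 in limma.

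At 6 weeks the authors' deposited table showed hardly any difference in these genes. Of 48 splicing genes there, 1 was lower at the deposited p below 0.05, where 4.09% of all genes were, and none was higher, where 4.42% were. That gene was Hnrnph3, an H-type hnRNP, with a ratio of MI+TRD to MI of 0.741 (authors' deposited table: least-squares means 21.0 in MI and 15.6 in MI+TRD, false discovery rate 0.408). None passed a false discovery rate of 0.05, as was so for all genes (0.0%). The ratios of the other 47 in the authors' deposited table ran from 0.73 for Snrpn to 1.27 for Snrpg, both at very low levels. Ratios below 1 numbered 30 of 48, with 57.0% of all genes. The 3 of smallest p in each family in the authors' deposited table were Srsf2 (ratio 0.851), Srsf4 (0.855) and Srsf11 (0.825), Hnrnph3, Hnrnpm (0.905) and Hnrnph2 (1.12), Snrpg, Snrpb (1.06) and Snrpa (1.12), and Sf3b5 (0.85), Sf3b2 (1.08) and Sf3a3 (0.937).

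At 12 weeks the authors' deposited table gave 17 of 48 splicing genes lower at the deposited p (35.4%, against 22.0% of all genes) and none higher, against 2.12%. Only Snrpb passed a false discovery rate of 0.05 in the authors' deposited table (ratio 0.671, false discovery rate 0.0485), where 2.9% of all genes were lower and 0.0443% higher by that criterion. Ratios below 1 numbered 43 of 48, with 67.3% of all genes, and 27 genes had ratios below 1 at both times, with 42.3% of all genes. Snrpe, which is in these tables alone, had ratios of 0.573 at 12 weeks and 0.786 at 6 weeks. Snrpe thus had the lowest ratio of the 48 at 12 weeks and among the lowest at 6 weeks, but at very low levels. Its least-squares means in MI and MI+TRD were 1.04 and 0.594 at 12 weeks, and 1.17 and 0.922 at 6 weeks. Its false discovery rates in the authors' deposited tables were 0.371 at 12 weeks and 0.988 at 6 weeks. Sf3b5 had ratios of 0.658 and 0.85 at these times, with false discovery rates of 0.0612 and 0.912 there. Other genes that were low at 12 weeks had ratios near or above 1 at 6 weeks: the ratios in the authors' deposited tables were 0.598 at 12 weeks and 1.12 at 6 weeks for Srsf9, 0.714 and 1.12 for Hnrnph2, 0.671 and 1.06 for Snrpb, and 0.602 and 0.962 for Srsf7. The difference between the times was not tested, since the values per library used here are those of 12 weeks.

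**Figure D5:**
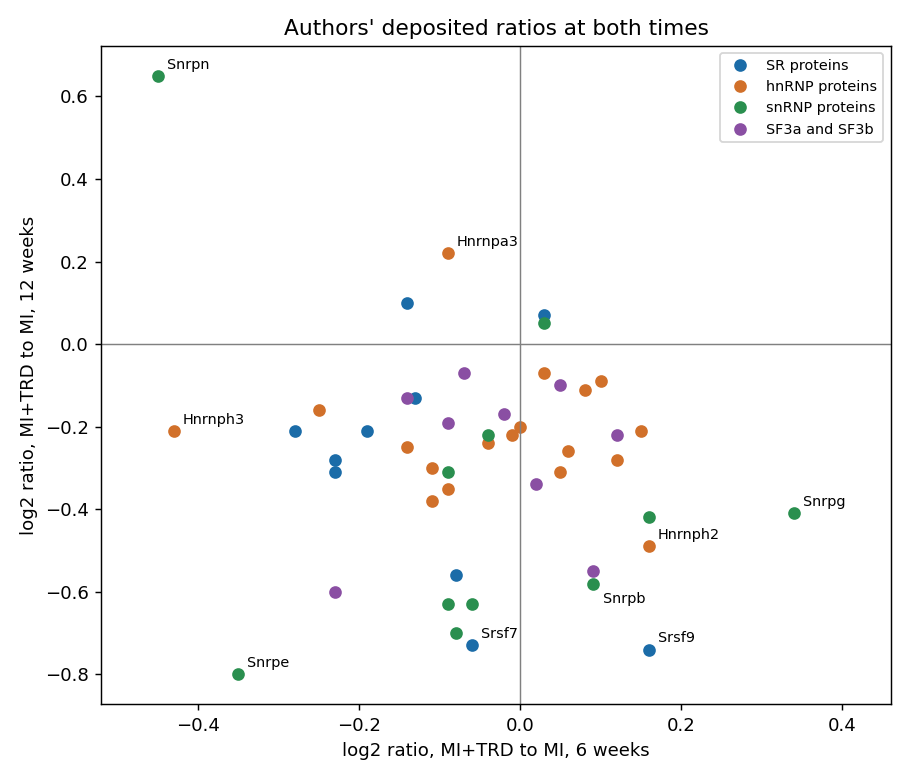
Log2 ratio of MI+TRD to MI at 6 weeks (x axis) and at 12 weeks (y axis) in the authors' deposited tables for the 48 splicing genes, coloured by family. Most points lie below the horizontal line, and Srsf9, Snrpb and Hnrnph2 lie to the right of the vertical line at 6 weeks and well below the horizontal line at 12 weeks.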

How the data were processed

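Polyadenylated RNA of rat myocardium was sequenced, and the submitters' processing notes list Partek and rn6, with no version or role. How reads were aligned, counted, annotated and scaled is not given in the sources used here. The authors deposited a normalized count per gene and library at 12 weeks, a signal in which nearly all low values are whole multiples of 1 step. Reads were taken as value divided by step, minus 1; of values up to 20 steps, 97.2% to 98.6% in each library were whole to within 0.1. The authors deposited for each time a table with the ratio of MI+TRD to MI, a signed fold score, a p-value with its false discovery rate and the signal of the least-squares means, per the file headers.

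The members and lists were chosen with earlier results of these data known. The test was limma 3.58.1 (R 4.3.3) with a trended prior, two-sided, without covariates, on log2(value + 0.229), fitted to the 10633 genes of 10723 with a mean of at least 0.458 normalized counts, with Benjamini-Hochberg adjustment over all of them and a threshold of 0.05. Fold changes on this scale understate those of low genes. edgeR 4.0.16 and DESeq2 1.42.0 on the recovered reads, other pseudocounts, filters and scalings, library weights, a replicate block and leaving out each library were alternatives. Leaving out MI+TRD 1, 4 and 5 and removing the trend over gene span were chosen after seeing the data. Named genes are, in each family, the 4 of smallest p and the 1 of highest mean, at 6 weeks the 3 of smallest deposited p, and up to 3 of each other list by smallest p, with genes called higher in those lists added after their values were seen; 2 genes chosen in these ways, or for likeness to a named gene, are not reported here. Coordinates of genes are those of the deposited table. The steps were tested on simulated data. Counting error alone leaves a count of 0 able to hide up to 3 reads.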

Additional observations from a re-analysis of the deposited data

Results flagged for a closer look

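Among 42 groups of 6 libraries (21 named genes in MI and in MI+TRD), 3 held a library far from the rest of its group, by a gap over Dixon's limit for 6 values, where chance alone gives about 1 group in 20. Hnrnph2 was 44.5 normalized counts in MI 2, above 31.4 to 35.4 in the other MI libraries. Snrpb was 41.1 in MI 4, above 31.7 to 33.1 in the others. Sf3b2 was 80.1 in MI 4, above 53.8 to 62.1 in the others. All 3 values are high ones in MI. MI 4 has the highest column total of the 12 libraries, 540053, and is the highest MI library for 40.5% of all genes.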

How the results depend on the processing

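The count of splicing genes lower at an unadjusted p below 0.05 at 12 weeks (13 in limma) depended on the scaling and on single libraries. It was 13 with both other pseudocounts, with no filter and with a filter at 50 steps, and 11 with a replicate block. It was 5 with median ratios, 0 with equal column totals, 3 with equal totals without ribosomal RNA and 7 with quantile normalization; each of these 4 gave 1 gene higher, Hnrnpa3. Of all genes, 8.25%, 3.87%, 6.62% and 9.82% were lower in these 4 scalings, and 7.5%, 11.4%, 8.46% and 6.55% higher. Library weights gave 8 lower, edgeR on recovered reads 2 (Sf3b5 and Snrpb) and DESeq2 1 (Sf3b5), and both count tests gave 1 higher. Leaving out each library in turn gave 7 (without MI+TRD 5) to 17 (without MI+TRD 2 or 6) lower, with 8 without MI 2 and without MI+TRD 4, and 0 to 1 higher (1 without MI 5). Without MI+TRD 1, 4 and 5 it was 0 lower and the relative median turned to 0.112; with the span trend removed it was 0 lower and 2 higher. The share of all genes called is not given here for the pseudocounts, filters, replicate block, library weights or single libraries left out. Whether the counts in those settings moved with the whole table or with the splicing genes cannot be told. No setting gave a splicing gene an adjusted p below 0.05. At 6 weeks the false discovery rate gave 0 in place of 1.

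Over 21 named genes and 26 alternatives, 531 of the fold changes kept their direction and 15 reversed. Sf3b1 was 0.06 with median ratios, 0.14 with equal totals, 0.09 without ribosomal RNA, 0.04 with quantiles, 0.04 with edgeR, 0.05 with DESeq2 and 0.02 without MI+TRD 1, 4 and 5. Equal totals gave 0.02 for Hnrnpm, 0.06 for Hnrnpu and 0.06 for Sf3b2, and leaving out ribosomal RNA as well 0.01 for Hnrnpu and 0.01 for Sf3b2. Removing the span trend gave 0.02 for Hnrnpdl, 0.10 for Hnrnpu and 0.08 for Srsf2. The cause was not tested. Replicate numbers are shared by title only. Same-numbered libraries correlated by -0.334 to 0.326 in their deviations. For MI+TRD 2, 3 and 5 the MI library most alike was that of the same number, and for MI+TRD 1, 4 and 6 it was another. These values cannot decide whether the numbers pair samples. The replicate block gave 11 lower.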
